A study of Mus musculus with 12 samples.

Results

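The 9 genes described here encode the cell surface receptors for type I and type II interferon and the proteins that carry their signal to the nucleus. They were found by gene symbol among the 55487 genes of the deposited tables. Ifnar1, Ifnar2, Ifngr1 and Ifngr2 encode the receptor chains, Jak1, Jak2 and Tyk2 encode Janus kinases, and Stat2 and Irf9 encode transcription factors. Each gene was listed above 0 in all 12 libraries, and all 9 passed the filter on low values in every comparison.

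RNA was sequenced from skin wounds of male C57BL/6JNarl mice aged 6 weeks, which carried 2 full-thickness punch wounds of 6 mm each on the back. Every wound was given 200 µl of 25% Pluronic F127 gel in saline once a day under a Tegaderm dressing. In the sham group the gel held no drug, and in CAP-treated wounds it held 10 µM capsaicin (CAP), the compound that makes chili peppers hot and that opens the ion channel TRPV1. The 12 libraries fell into 4 groups of 3, namely sham and CAP-treated wounds taken at day 3 and at day 6 after wounding. Whole wounds with surrounding tissue were used, so a level is an average over all cell types of the sample, and fewer cells of a type cannot be told apart from less RNA per cell. The sources do not tell whether some libraries of a group share a mouse, or whether each library holds RNA of a single wound. Each n is therefore a number of libraries, a count of wounds below is a count of libraries, and p-values measure the spread between these samples.

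Interferons are secreted proteins that switch cells into an antiviral and inflammatory state. Type I interferon binds IFNAR1 and IFNAR2, which carry the kinases TYK2 and JAK1. The kinases phosphorylate STAT2, which works with IRF9 in the complex ISGF3, and ISGF3 switches on genes such as Isg15, Ifit1 and Mx1. Type II interferon (interferon gamma) binds IFNGR1 and IFNGR2, which carry JAK1 and JAK2. STAT2 and IRF9 are themselves made in larger amounts in cells exposed to interferon, whereas the receptor chains and kinases are present in most cells without it. In skin wounds, neutrophils, macrophages, dendritic cells, keratinocytes and fibroblasts all carry these receptors.

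Levels are given in TPM, a unit of transcript abundance that corrects for transcript length and library total and so allows different genes to be compared. TPM carries no read number, so the depth of the libraries is unknown and no counting interval can be given. At least 18533 and at most 19325 genes reached 0.3 TPM per library. CAP day 6 replicate 2 stood apart from the other libraries. Its median correlation with them was 0.949 (all others reached 0.960 or more), its 10 most abundant genes held 14.1% of its TPM (8.27% to 11.3% elsewhere), and its keratin gene Krt10 alone reached 40801 TPM. All 9 genes had their lowest level of the 12 libraries in that library, so the day 6 differences of the 9 genes are given with and without it.

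In all groups, Ifngr1 and Jak1 were the most abundant of the 9 genes and Tyk2 the least. Ifngr1 averaged 184 ± 24.2 TPM in the sham group at day 3 (mean ± SD, n = 3, as in all such values), 189 ± 17.6 TPM in CAP-treated wounds at day 3, 189.9 ± 8.91 TPM in the sham group at day 6 and 164 ± 36.7 TPM in CAP-treated wounds at day 6. Jak1 averaged between 160.3 and 178 TPM in the 4 groups, and the ranges of Ifngr1 and Jak1 overlapped in each. A wide step followed. The remaining 7 genes averaged between 25.8 and 79.7 TPM, and in no group did their ranges meet that of Jak1. In the sham group at day 3, Stat2 (71.3 TPM), Ifnar1 (62.5 TPM), Ifnar2 (61.1 TPM) and Irf9 (60.9 TPM) came next, with ranges that overlapped between neighbours. In CAP-treated wounds at day 6, Ifnar2 (53.1 TPM), Ifnar1 (46.3 TPM) and Ifngr2 (46.2 TPM) stood at that place, and Stat2 (29.6 TPM) came eighth of the 9, with a range that overlapped those of Jak2 above it and Tyk2 below it.

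**Figure D1:**
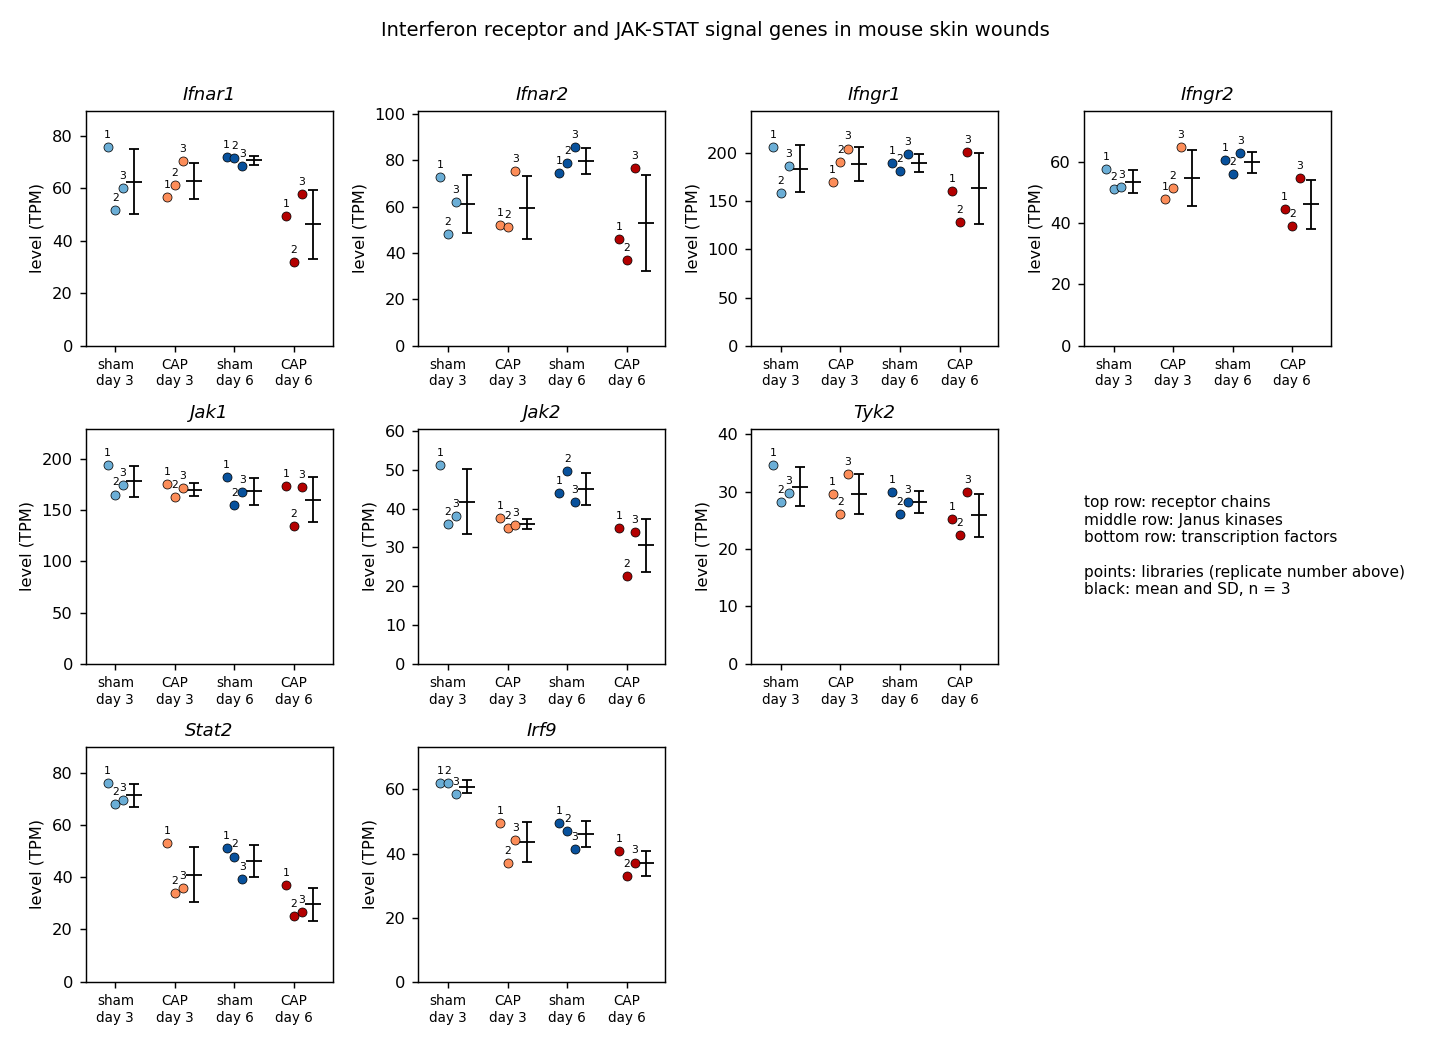
Level (TPM) of each of the 9 genes in the 12 libraries, with 1 panel per gene, receptor chains in the top row, Janus kinases in the middle row and transcription factors in the bottom row. Points are libraries with their replicate number and black bars give the mean and SD of 3 libraries; Stat2 and Irf9 lie lower in all CAP-treated wounds than in any sham wound of the same day, while the receptor chains overlap at day 3.

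The gene for interferon gamma receptor 1 lies at chr10:19591949-19610229 on the + strand of GRCm38. Of the other 3 receptor chains, Ifnar2 (chr16:91372783-91405589), Ifnar1 (chr16:91485238-91507441) and Ifngr2 (chr16:91547072-91565623) lie on the + strand of a cluster of 193 kb on chromosome 16, together with Il10rb, which encodes a receptor chain for interferon lambda and interleukin 10. Jak1 lies at chr4:101152367-101265282 and Tyk2 at chr9:21104068-21131243, both on the - strand. Jak2 (chr19:29251828-29313080), Stat2 (chr10:128270559-128292849) and Irf9 (chr14:55603571-55610030) lie on the + strand. Some of the exonic sequence is shared with overlapping genes, at 9.46% for Ifnar2 (with Gm21970, on the same strand), 8.07% for Tyk2 (with 1700084C06Rik, on the other strand) and 2.28% for Irf9 (with Rnf31, on the same strand), and reads from such stretches could have been counted for either gene. The sources used here do not state whether strand was used.

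CAP was first compared with the gel alone at day 3, the earlier of the days sampled. The threshold used here asked for both a 2-fold or larger difference and a p under 0.05 before adjustment. None of the 9 genes was past it in the limma fit, in which 1.58% of the 18330 genes tested were. At an unadjusted p under 0.05 alone, 2 of the 9 genes, Stat2 and Irf9, were lower in CAP-treated wounds, against 5.14% of all genes tested that were lower by this measure. No gene of the 9 was higher at p under 0.05. None had an adjusted p under 0.05, which 0.0164% of the genes tested had.

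Stat2 encodes the STAT that is specific to type I and type III interferon signalling. In the sham group at day 3 its levels were 76.1, 68.1 and 69.7 TPM in replicates 1 to 3. In CAP-treated wounds they were 53.3, 33.8 and 36.0 TPM. All CAP-treated wounds thus lay below all sham wounds, and replicate 1 of the CAP-treated wounds was the nearest to them. The difference was -0.82 ± 0.18 on the log2(TPM + 0.1) scale (SE), which is 1.77-fold lower, with an unadjusted p of 0.00239 and an adjusted p of 0.500 by limma. The exact permutation test gave p = 0.1, the smallest value that 3 libraries against 3 allow. Without CAP day 3 replicate 1, the difference was -1.03 with an unadjusted p of 5.37e-05, and Stat2 then was past the threshold and had an adjusted p of 0.0371 by limma. In that fit, 510 of the 18234 genes tested were past the threshold and 48 had an adjusted p under 0.05.

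Irf9 encodes the DNA-binding partner of STAT2 in ISGF3. Its levels in the sham group at day 3 were 62.0, 61.9 and 58.6 TPM. Those in CAP-treated wounds were 49.7, 36.9 and 44.2 TPM. The groups did not overlap, and the 3 sham wounds differed from each other by less than the 3 CAP-treated wounds did (SD 1.93 and 6.38 TPM). The difference was -0.49 ± 0.12 log2, or 1.40-fold lower, with an unadjusted p of 0.00494 and an adjusted p of 0.522 by limma, and the exact permutation p was again 0.1. Over all genes tested, 8.75% had CAP-treated wounds that lay wholly below the sham wounds at day 3.

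The receptor chains and kinases did not pass at day 3. The log2 differences of the receptor chains lay between -0.04 (Ifnar2, SE 0.20) and 0.04 (Ifngr1, SE 0.13), and all 4 had overlapping groups. Ifnar1, for example, was at 75.8, 51.5 and 60.2 TPM in the sham group and at 56.7, 61.1 and 70.2 TPM in CAP-treated wounds. The kinases lay between -0.20 (Jak2, SE 0.14) and -0.06 (Tyk2, SE 0.13). The smallest unadjusted p among these 7 genes was 0.211, for Jak2, by limma. With SEs of 0.09 to 0.20 log2, small differences in either direction cannot be seen with 3 libraries per group.

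At day 6, Ifnar1, Ifnar2, Ifngr2 and Jak2 were also lower at an unadjusted p under 0.05, while Ifngr1 did not pass. No gene of the 9 was past the 2-fold threshold by limma, against 3.8% of the 18323 genes tested. At an unadjusted p under 0.05, 6 of the 9 genes were lower in CAP-treated wounds, namely Stat2, Jak2, Ifnar1, Ifngr2, Irf9 and Ifnar2, while 12.5% of all genes tested were lower by this measure. None was higher, and the adjusted p-values of these 6 genes lay between 0.209 and 0.241, while no gene of the whole table had one under 0.05. When CAP day 6 replicate 3 was left out, 1430 of the 18148 genes tested had an adjusted p under 0.05 by limma, among them Ifnar2 (0.0307), Ifngr2 (0.0484) and Ifnar1 (0.0494). The exact permutation test gave p = 0.1, its smallest value, for 5 of them and p = 0.2 for Ifnar2. The median over all genes tested was itself -0.12 log2 at day 6, and it was -0.00 after median-ratio scaling, so the differences below are to be read against that median. After that scaling 3 of the 9 genes, Stat2, Jak2 and Ifnar1, were lower at p under 0.05. The count was also 3 without sham replicate 1, without sham replicate 2 or without CAP replicate 2, all of day 6.

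Of the receptor chains, Ifnar1, which carries TYK2, was at 71.9, 71.4 and 68.4 TPM in the sham group at day 6. In CAP-treated wounds it was at 49.2, 31.97 and 57.7 TPM, so that the groups did not overlap. The difference was -0.65 ± 0.21 log2, or 1.57-fold lower, with an unadjusted p of 0.0172 by limma. Without CAP day 6 replicate 2 it was -0.40, with an unadjusted p of 0.00870.

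Ifnar2, which carries JAK1 and binds type I interferon most tightly, was at 74.5, 78.8 and 85.9 TPM in the sham group at day 6. It was at 45.9, 37.0 and 76.5 TPM in CAP-treated wounds. Replicate 3 of the CAP-treated wounds fell within the sham range, and the other 2 lay well below it. The difference was -0.65 ± 0.25 log2 with an unadjusted p of 0.0364 by limma, and without CAP day 6 replicate 2 it was -0.43 with an unadjusted p of 0.0961.

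Ifngr2, the chain of the interferon gamma receptor that carries JAK2, was at 60.5, 56.2 and 63.0 TPM in the sham group at day 6 and at 44.7, 39.1 and 54.9 TPM in CAP-treated wounds. The highest CAP-treated wound lay just below the lowest sham wound. The difference was -0.39 ± 0.14 log2 with an unadjusted p of 0.0281, and without CAP day 6 replicate 2 it was -0.27 with an unadjusted p of 0.0695. Ifngr1, the chain that binds interferon gamma and carries JAK1, was at 161, 128 and 201 TPM in CAP-treated wounds and between 181 and 199 TPM in the sham group. Its groups overlapped, and its difference of -0.24 ± 0.17 log2 had an unadjusted p of 0.196, and without CAP day 6 replicate 2 it was -0.07 with an unadjusted p of 0.577 by limma.

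Among the kinases, Jak2 serves the interferon gamma receptor and many other cytokine receptors. It was at 44.0, 49.7 and 41.6 TPM in the sham group at day 6 and at 35.1, 22.6 and 33.8 TPM in CAP-treated wounds, with no overlap. The difference was -0.59 ± 0.18 log2, with an unadjusted p of 0.0156 by limma, and it was -0.38 with an unadjusted p of 0.0145 without CAP day 6 replicate 2. Jak1 and Tyk2, the kinases of the type I receptor, differed by -0.08 ± 0.13 and -0.13 ± 0.13 log2, with overlapping groups. Without that library Jak1 stood at 0.04 log2 and Tyk2 at -0.03 log2.

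Stat2 at day 6 was at 51.1, 47.9 and 39.4 TPM in the sham group. It was at 36.9, 25.2 and 26.6 TPM in CAP-treated wounds, again with every CAP-treated wound below every sham wound. The difference was -0.65 ± 0.18 log2, or 1.57-fold lower, with an unadjusted p of 0.00776 and an adjusted p of 0.209 by limma. Without CAP day 6 replicate 2 it was -0.55 with an unadjusted p of 0.0233. Irf9 was at 49.6, 47.0 and 41.5 TPM in the sham group and at 40.8, 32.9 and 37.2 TPM in CAP-treated wounds, a difference of -0.32 ± 0.12 log2 with an unadjusted p of 0.0356. The Irf9 groups did not overlap, but the gap between them was under 1 TPM, and without CAP day 6 replicate 2 the unadjusted p was 0.0906. In all, 5 of the 9 genes had CAP-treated wounds wholly below the sham wounds at day 6, a pattern held by 18% of the genes tested.

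When both days were fitted together with day as a term, CAP-treated wounds were lower for 3 of the 9 genes at an unadjusted p under 0.05, against 13.6% of the 17784 genes tested that were lower in this way. None of the 9 was past the 2-fold threshold, which 0.95% of the genes tested were. Stat2 differed by -0.74 ± 0.13 log2 (unadjusted p = 1.17e-04 and adjusted p = 0.112 by limma). Irf9 differed by -0.40 ± 0.09 log2 (unadjusted p = 5.61e-04, adjusted p = 0.116). For both genes the exact permutation test within days gave p = 0.005, the smallest that its 400 divisions allow. Jak2 differed by -0.39 ± 0.13 log2 (unadjusted p = 0.0120, exact permutation p = 0.01). The receptor chains lay between -0.35 and -0.10 log2, with unadjusted p-values from 0.0830 by limma and exact permutation p-values from 0.105. Without CAP day 3 replicate 3, whose levels of Ifnar2 and Ifngr2 were the highest of that group, Ifnar1, Ifnar2 and Ifngr2 also came under 0.05, which made 6 of the 9 genes, and without sham day 3 replicate 2 the count was 5. In these fits 3785 of 17733 and 3707 of 17739 genes tested had an unadjusted p under 0.05 in either direction. In the main fit 2926 of 17784 had.

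**Figure D2:**
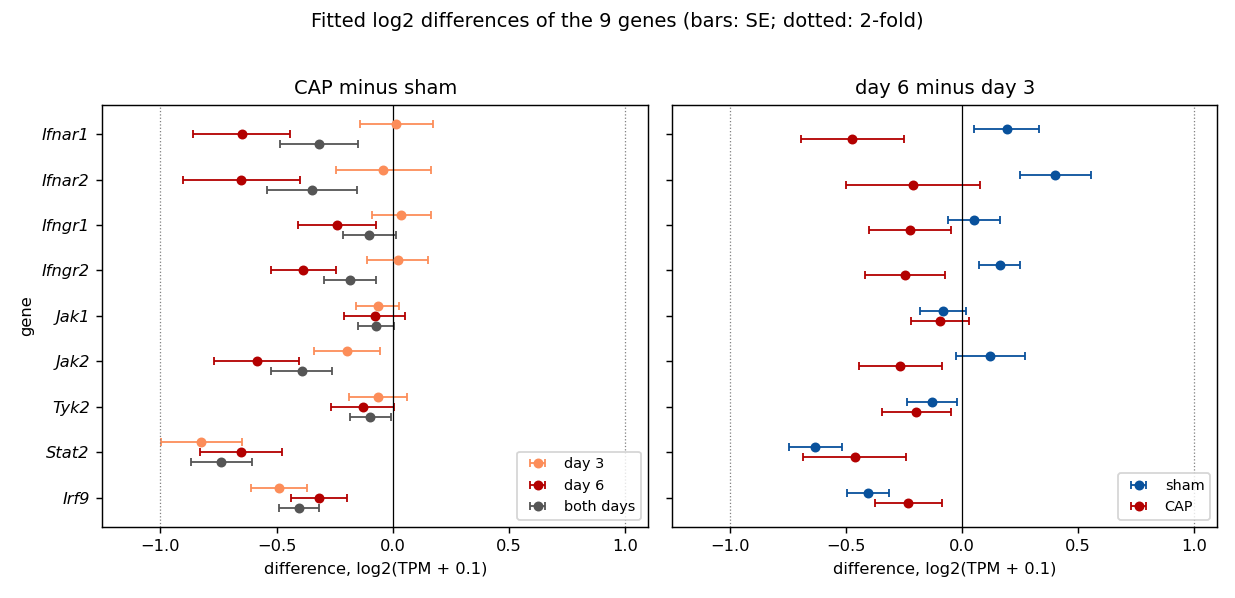
Fitted differences on the log2(TPM + 0.1) scale with their SE for the 9 genes, on the left CAP minus sham at day 3, at day 6 and over both days, on the right day 6 minus day 3 within each treatment; dotted lines mark 2-fold. Stat2, Irf9, Jak1 and Tyk2 lie below 0 in every comparison shown, Jak1 and Tyk2 nearer to it than Stat2 and Irf9. For CAP minus sham, the receptor chains lie near 0 at day 3 and at -0.24 to -0.65 at day 6.

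The effect of CAP at day 6 was then compared with that at day 3 in 1 fit of all 12 libraries. Ifnar1 was the only one of the 9 genes whose difference between the effects had an unadjusted p under 0.05, at -0.66 ± 0.28 log2 (unadjusted p = 0.0379, adjusted p = 0.431 by limma). Of the 20267 genes tested, 11.3% passed by this measure and 5.88% had the lower effect at day 6. None of the 9 genes was past the threshold, which 4.9% of the genes tested were. Ifnar2 (-0.61 ± 0.35), Ifngr2 (-0.41 ± 0.20) and Ifngr1 (-0.28 ± 0.22) had differences in the same direction with unadjusted p-values between 0.0628 and 0.233. For Stat2 and Irf9 the effects at the 2 days differed by 0.17 ± 0.27 and 0.17 ± 0.17 log2. The call for Ifnar1 was lost without CAP day 6 replicate 2 (-0.42, unadjusted p = 0.0700 by limma) and in 7 of the other leave-outs. Without CAP day 6 replicate 3 the difference passed for 4 genes, Ifnar1, Ifnar2, Ifngr1 and Ifngr2. It passed for 2 genes without sham day 3 replicate 1 (Ifnar1 and Jak2) and without CAP day 3 replicate 1 (Ifnar1 and Ifngr2). In these fits 4062 of 20338, 2765 of 20323 and 2812 of 20319 genes tested passed, against 2292 in the main fit.

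The sham group also differed between the days. Stat2 was lower at day 6 than at day 3 by -0.63 ± 0.11 log2, or 1.55-fold, with an unadjusted p of 7.78e-04 and an adjusted p of 0.0417 by limma, and 2.29% of the 18368 genes tested had an adjusted p under 0.05. Its adjusted p was between 0.0594 and 0.138 when any 1 sham library was left out, 0.0921 without the filter and 0.219 in the joint fit. Irf9 was lower by 1.32-fold at day 6 (unadjusted p = 0.00281, adjusted p = 0.0768). Ifnar2 was 1.32-fold higher at day 6, from 73.0, 48.2 and 62.1 TPM at day 3 (unadjusted p = 0.0328, adjusted p = 0.255 by limma), and its unadjusted p was over 0.05 in the joint fit and without replicate 2 or 3 of either sham group. By an unadjusted p under 0.05, 7.91% of all genes tested were lower and 8.05% higher at day 6, and the count of 3 of the 9 genes became 5 without sham day 3 replicate 1, when Jak2 and Ifnar1 joined. That replicate held the highest level of 7 of the 9 genes in the whole series. None of the 9 was past the 2-fold threshold, against 3.75% of the genes tested.

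In CAP-treated wounds all 9 genes were lower at day 6 than at day 3, by 0.09 to 0.47 log2, but none had an unadjusted p under 0.05 by limma, against 11.6% of the 18202 genes tested. None was past the threshold (2.79% of the genes tested) and none had an adjusted p under 0.05 (0.00549%). After CAP day 6 replicate 2 was left out, 7 of the 9 genes were below 0, Stat2 with -0.36 and Ifnar1 with -0.23 log2 the furthest (unadjusted p = 0.202 and 0.149 by limma), while Ifnar2 stood at 0.02 and Jak1 at 0.02 log2. With all libraries, Ifnar1 came nearest with -0.47 ± 0.22 log2 (unadjusted p = 0.0735), followed by Stat2 with -0.46 ± 0.22 log2 (unadjusted p = 0.0780 by limma). In the joint fit of all 12 libraries both had unadjusted p-values under 0.05, at 0.0377 and 0.0321. Without CAP day 6 replicate 3 there were 2 genes at p under 0.05, Ifnar1 (unadjusted p = 0.0206 by limma) and Ifngr1 (unadjusted p = 0.0426), and without CAP day 6 replicate 1 there was 1, Stat2 (unadjusted p = 0.0305). Stat2 in sham wounds at day 6 (46.2 ± 6.05 TPM) and in CAP-treated wounds at day 3 (41.0 ± 10.6 TPM) had overlapping ranges.

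The ratio of partner genes within a library does not depend on the scaling of that library. Ifngr1 stood at 3.10 to 3.71 times Ifngr2 in all 12 libraries, and Jak1 at 5.19 to 6.89 times Tyk2. At day 6, Ifngr1 over Ifngr2 was 3.13, 3.23 and 3.16 in the sham group. It was 3.61, 3.27 and 3.67 in CAP-treated wounds of that day, with no overlap, while the groups overlapped at day 3. Ifnar2 over Ifnar1 ranged from 0.837 to 1.33. The ratio of Stat2 to Irf9 was 1.17 ± 0.07 in the sham group and 0.935 ± 0.13 in CAP-treated wounds at day 3, with no overlap. At day 6 it was 1.03, 1.02 and 0.950 in the sham group and 0.905, 0.767 and 0.715 in CAP-treated wounds, again with no overlap. Jak1 over Jak2 was 4.32 ± 0.46 and 4.72 ± 0.075 at day 3, and 3.77 ± 0.56 and 5.34 ± 0.56 at day 6, when the 3 CAP-treated wounds (4.95, 5.98 and 5.10) lay above the 3 sham wounds (4.15, 3.12 and 4.04). The ratios were not tested.

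**Figure D3:**
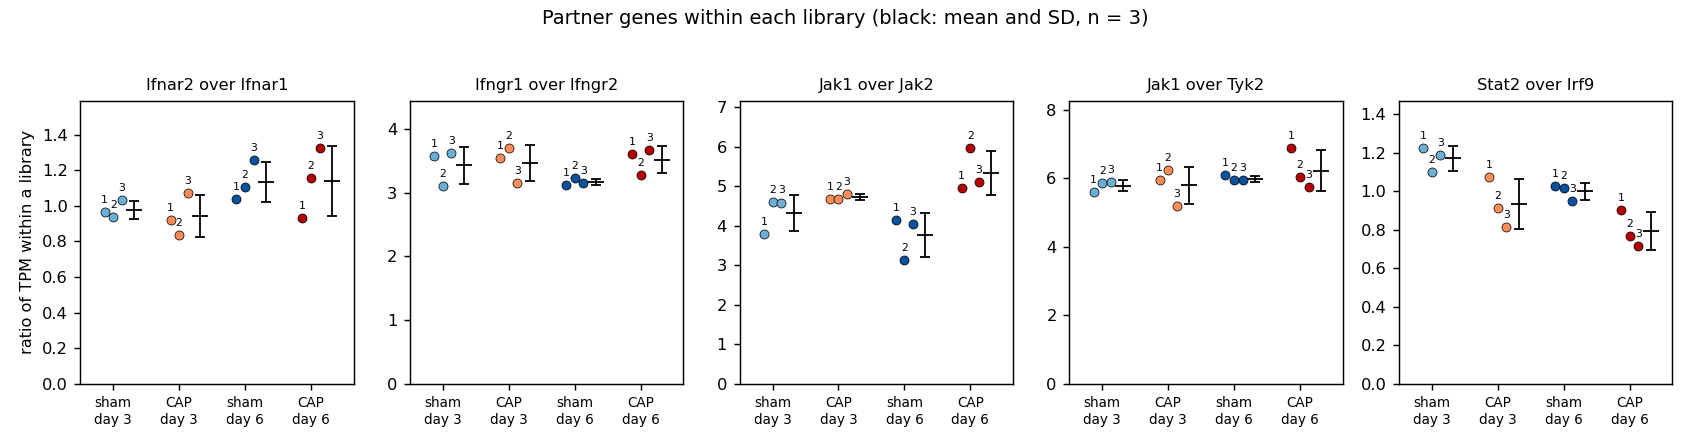
Ratio of the TPM of 2 partner genes within each library, in 5 panels by group, with points for libraries (replicate number above) and black bars for the mean and SD of 3 libraries. Stat2 over Irf9 lies below the sham range of the same day in all CAP-treated wounds. Jak1 over Jak2 and Ifngr1 over Ifngr2 are higher in all CAP-treated wounds than in any sham wound at day 6, with Ifngr1 over Ifngr2 between 3.10 and 3.71 in all libraries.

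ISGF3 binds a DNA element known as the interferon-stimulated response element, whose core reads GAAA, any 2 bases, GAAA. It was searched on both strands of RefSeq promoter windows (GRCm38.p6), which run from 250 bases before to 50 bases after the start. Distances are counted from the start used in these windows, which for Stat2 lies upstream of the gene start given above. All 9 genes were matched, with 10 windows. Of the 9 genes, Stat2 alone held a match to the response element core, 222 bases before its start, and this motif occurred in 3.44% of all 32851 windows. The 250 bases before the Stat2 start (chr10:128270248-128270497, + strand, 56.8% G and C) are shown because Stat2 had the largest difference of the 9 genes over both days, with the motif in capitals, which here reads on the other strand.
Stat2: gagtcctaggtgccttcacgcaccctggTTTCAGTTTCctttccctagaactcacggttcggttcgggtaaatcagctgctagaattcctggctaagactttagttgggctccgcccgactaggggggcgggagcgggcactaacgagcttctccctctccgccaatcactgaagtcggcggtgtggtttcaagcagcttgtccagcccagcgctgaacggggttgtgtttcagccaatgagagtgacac

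Of 12 well known ISGF3 target genes, 10 had a promoter window and 5 of those held the response element core. For comparison, the 30 bases around the match are shown for Stat2 and 4 targets, each read on the strand that gives this core, with the match in capitals. Stat2 is read from chr10:128270266-128270295 on the - strand, Isg15 from chr4:156200865-156200894 on the - strand, Ifit1 from chr19:34640794-34640823 on the - strand, Ifit3 from chr19:34583397-34583426 on the - strand and Rsad2 from chr12:26456553-26456582 on the + strand. The matches begin 222, 66, 85, 122 and 120 bases before the start. Isg15 held 3 overlapping matches and Ifit1 and Ifit3 held 2 each, of which the one nearest the start was taken. Stat2, Ifit1 and Ifit3 share the same 10 letters.
Stat2: ctagggaaagGAAACTGAAAccagggtgcg
Isg15: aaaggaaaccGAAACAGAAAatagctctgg
Ifit1: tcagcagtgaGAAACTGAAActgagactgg
Ifit3: gaggaaagtaGAAACTGAAAcagacttaaa
Rsad2: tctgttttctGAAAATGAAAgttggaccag

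The ISGF3 target genes were lower together with Stat2 and Irf9. At day 3, all 12 were lower in CAP-treated wounds at an unadjusted p under 0.05 by limma and 10 were past the 2-fold threshold, with a median difference of -1.48 log2 against -0.05 over all genes tested. By these measures, 5.14% of all genes tested were lower and 1.58% were past the threshold. None of the 12 targets had an adjusted p under 0.05, but 8 had without CAP day 3 replicate 1, when 48 of the 18234 genes tested had. Isg15, a ubiquitin-like protein attached to other proteins in interferon-treated cells, was at 49.9, 48.7 and 47.9 TPM in the sham group and at 26.2, 9.94 and 13.3 TPM in CAP-treated wounds (-1.68 ± 0.32 log2, unadjusted p = 0.00138). Irf7, the factor that amplifies interferon production, was at 183, 201 and 199 TPM and at 98.8, 22.05 and 42.4 TPM (-2.10 ± 0.48 log2, unadjusted p = 0.00359). As for Stat2 and Irf9, replicate 1 was the highest of the CAP-treated wounds for both genes. The number past the threshold lay between 7 and 10 when libraries were left out in turn.

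At day 6 all 12 target genes were again lower in the mean, with a median of -0.65 log2 against -0.12 over all genes tested, but 3 had an unadjusted p under 0.05 by limma and 2, Isg15 (-1.05 ± 0.41 log2) and Rsad2 (-1.02 ± 0.20 log2), were past the threshold. Over all genes tested, 12.5% were lower at p under 0.05 and 3.8% were past the threshold. Rsad2 encodes the antiviral enzyme viperin. Left-out libraries moved the number of targets past the threshold between 0 (without sham replicate 1 or CAP replicates 2 or 3) and 5 (without CAP replicate 1), and it was 0 after median-ratio scaling. Over both days 8 targets were past the threshold and all 12 were lower at an unadjusted p under 0.05, while 3 were past it without CAP day 3 replicate 2 and 5 without replicate 3 of either CAP group. Of all genes tested over both days, 13.6% were lower at p under 0.05 and 0.95% were past the threshold.

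In the sham group, the targets were lower at day 6 than at day 3, with 12 of 12 at an unadjusted p under 0.05, 10 past the threshold and 8 with an adjusted p under 0.05 by limma (median -1.35 log2 against 0.00 over all genes tested). Over all genes tested, 7.91% were lower at an unadjusted p under 0.05, 3.75% were past the threshold and 2.29% had an adjusted p under 0.05. The number of targets with an adjusted p under 0.05 lay between 1 (without replicate 2 or 3 of the day 3 group) and 9 when libraries were left out, was 2 without the filter and 0 in the joint fit. Irf7 was the lowest of the targets at -2.24 ± 0.10 log2. In CAP-treated wounds 1 target, Rsad2, was past the threshold over the same time, against 2.79% of all genes tested. For Irf7 the effect of CAP differed between the days by 1.86 ± 0.62 log2 (unadjusted p = 0.0120, adjusted p = 0.428 by limma).

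**Figure D4:**
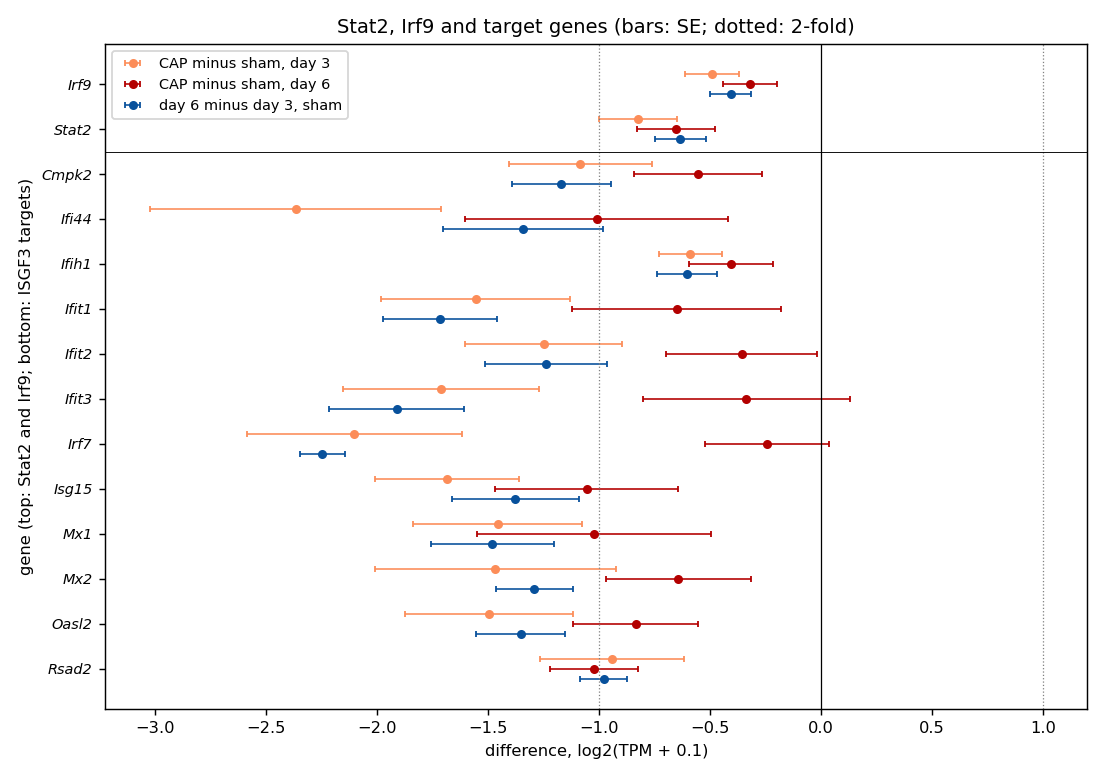
Fitted differences on the log2(TPM + 0.1) scale with their SE for Irf9 and Stat2 (top) and 12 ISGF3 target genes (bottom), for CAP minus sham at day 3, CAP minus sham at day 6 and day 6 minus day 3 in the sham group; dotted lines mark 2-fold. At day 3 the ISGF3 targets lie at -0.59 to -2.37, further from 0 than at day 6 for all but Rsad2.

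Among other kinases and factors of the pathway, Stat4, used by the interleukin 12 receptor, differed at day 3 by -0.94 ± 0.27 log2 (unadjusted p = 0.0103 by limma). At day 6 Jak3, the kinase of the common gamma chain of lymphocyte cytokine receptors, was past the threshold (-1.01 ± 0.40 log2, unadjusted p = 0.0390 by limma). So were 3.8% of all genes tested. Jak3 was at 38.1, 32.5 and 34.2 TPM in the sham group and at 23.8, 8.54 and 25.5 TPM in CAP-treated wounds. The value of 8.54 TPM came from CAP day 6 replicate 2, the library that stood apart. Of 8 other interferon regulatory factors, Irf7 and Irf1 were lower at p under 0.05 at day 3. Irf1 and Irf2 were lower at day 6, and Irf4 was higher at day 6 (0.71 ± 0.26 log2, unadjusted p = 0.0308 by limma). By this measure 5.14% of all genes tested were lower at day 3, and 12.5% were lower and 6.67% higher at day 6. None of the 8 factors had an adjusted p under 0.05 at either day.

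Of 14 inhibitors of the pathway, Usp18 was the only one with an unadjusted p under 0.05 at day 3, when 5.14% of all genes tested were lower and 1.46% higher by this measure. USP18 removes ISG15 from proteins and blocks IFNAR2, and its gene is itself switched on by interferon. It was at 16.8, 18.9 and 19.0 TPM in the sham group and at 13.3, 3.65 and 7.97 TPM in CAP-treated wounds (-1.31 ± 0.42 log2, unadjusted p = 0.0179 by limma). At day 6, 4 inhibitors were lower at p under 0.05, namely the feedback inhibitor Socs3 (-0.82 ± 0.30 log2) and the phosphatases Ptpn6 (-0.57 ± 0.20), Ptpn1 (-0.42 ± 0.16) and Ptpn2 (-0.30 ± 0.12). None of these 4 was past the 2-fold threshold, and 12.5% of all genes tested were lower at p under 0.05. The number of inhibitors lay between 0 (without sham replicate 2) and 6 (without CAP replicate 3) when libraries of day 6 were left out, and it was 1 without sham replicate 1 or CAP replicate 2 and 2 without CAP replicate 1.

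The interferons themselves were at or near 0. Of 21 ligand genes, 15 were listed at 0 in all 12 libraries and none passed the filter. The highest value was 0.407 TPM, for Ifng in sham day 3 replicate 2. With the depth unknown, no limit can be set on RNA below these levels. The receptor chains for interferon lambda were both measured, Il10rb at 73.4 to 167 TPM and Ifnlr1 at 5.61 to 8.53 TPM, and neither had an unadjusted p under 0.05 for CAP against sham on either day or over both.

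Markers of several cell types differed between the same groups. Markers of skin were present in all libraries, with Krt14 between 6740 and 20003 TPM. At day 3, beside the lower Stat2, Irf9 and target genes, 5 of 8 T and NK cell markers were lower at an unadjusted p under 0.05 by limma, and their summed level was 23.3 to 26.1 TPM in CAP-treated wounds and 28.1 to 41.5 TPM in the sham group. Gzma, Trac, Cd2, Nkg7 and Klrb1c were the lower ones, Cd3d, Cd3e and Cd3g were not, and none of the 8 was at 0. All 5 erythroid markers were higher at day 3 and past the threshold (summed level 2356 to 2803 TPM against 514 to 753 TPM). The monocyte and macrophage list overlapped at day 3 (4669 to 10258 TPM in CAP-treated wounds, 3960 to 5666 TPM in the sham group), although its members Ccr2 and Fcgr1 were lower at p under 0.05. At p under 0.05, 3 of 6 fibroblast markers and 1 of 6 endothelial markers were lower, 1 of 6 neutrophil markers was higher, and none of 6 keratinocyte and 6 skeletal muscle markers passed. Over all genes tested, 5.14% were lower and 1.46% higher by this measure. When libraries were left out, the lower T and NK cell markers numbered 2 to 5 and the lower fibroblast markers 0 to 3, all 5 erythroid markers were higher each time, and 5 skeletal muscle markers were lower without CAP replicate 1. The part of these cells in the levels of Stat2 and Irf9 was not tested.

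At day 6, keratinocyte markers summed to 42790 to 90138 TPM in CAP-treated wounds and to 24917 to 27941 TPM in the sham group, and 3 of 6, Krt1, Krt10 and Krt5, were higher at p under 0.05. CAP day 6 replicate 2, with the lowest receptor levels, had the highest keratinocyte sum and the lowest sums for neutrophils (351 TPM) and for monocytes and macrophages (4050 TPM) of its group. CAP day 6 replicate 3, with the highest receptor levels of its group, had the lowest keratinocyte sum and a monocyte and macrophage sum of 9205 TPM, within the sham range of 6976 to 9868 TPM. Other sums did not follow this order. The neutrophil sum of replicate 3 (1294 TPM) lay below that of CAP replicate 1 (2756 TPM) and below the sham range of 1908 to 3532 TPM. Its endothelial sum (192 TPM) also lay below that of CAP replicate 1 (201 TPM). Of the 8 monocyte and macrophage markers 3 were lower at p under 0.05, of the 6 endothelial markers 4, and of the 6 neutrophil markers 1, and of 6 fibroblast and 6 skeletal muscle markers 1 each was lower. None of 5 erythroid markers passed, and of 8 T and NK cell markers 1, Nkg7, was higher. Over all genes tested, 12.5% were lower and 6.67% higher by this measure at day 6. Without CAP day 6 replicate 2, 2 keratinocyte markers and no T and NK cell marker were higher, and 1 monocyte and macrophage marker, 4 endothelial, 1 neutrophil, 1 fibroblast and 4 skeletal muscle markers were lower. Without CAP day 6 replicate 3, 5262 of the 18148 genes tested had an unadjusted p under 0.05 (3517 of 18323 in the main fit). With that library left out, 7 monocyte and macrophage markers and 5 erythroid markers were lower. Without any 1 of the sham libraries no endothelial marker was lower. The part of these cells in the levels of the receptor chains and Jak2 was not tested.

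**Figure D5:**
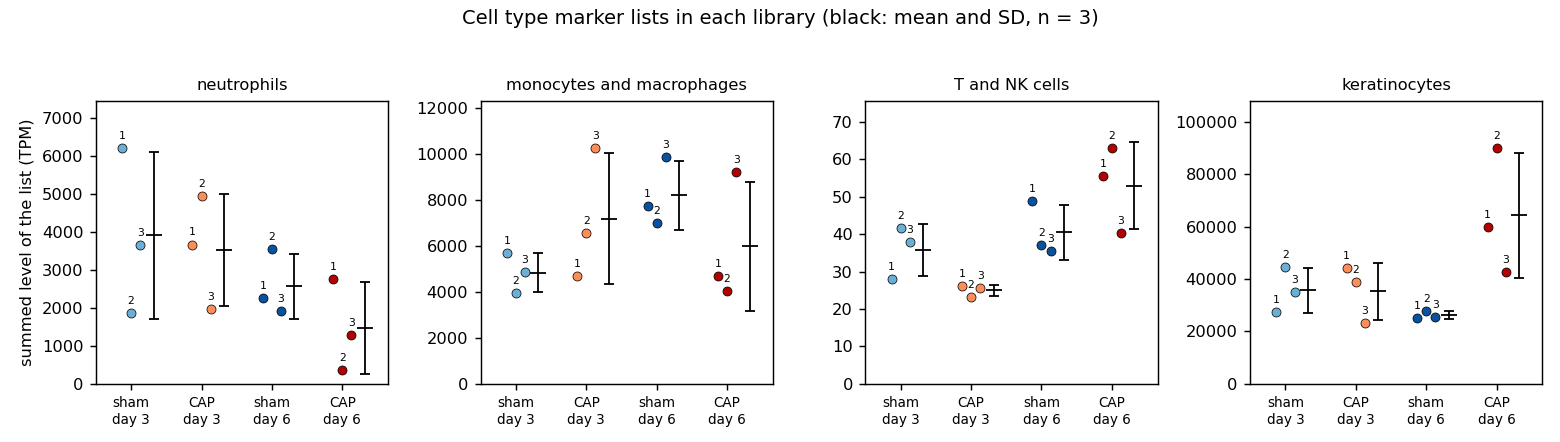
Summed level (TPM) of the marker genes of neutrophils, of monocytes and macrophages, of T and NK cells and of keratinocytes in each of the 12 libraries, in 4 panels by group, with points for libraries (replicate number above) and black bars for the mean and SD of 3 libraries. Keratinocyte sums in CAP-treated wounds at day 6 lie above all sham wounds of that day, and T and NK cell sums in CAP-treated wounds at day 3 lie below those of the sham group.

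To see which genes had a pattern most like that of Stat2, Irf9 and Ifngr2, the 12 libraries were ranked for each of the 15356 genes whose mean reached 1 TPM in every group, and the absolute differences of ranks were summed, so that 0 would be an identical order. For each gene 3 were kept, with equal sums taken in alphabetical order, so others with the same sum as the last may be unnamed. Dhx58, Ifi209 and Ifi35 were among the nearest to Stat2, each with a sum of 4. Bst2, Dhx58 and Oas3 were among the nearest to Irf9, also with 4 each. Stat2 and Irf9 were at a distance of 8 from each other and were each other's nearest among the 9 genes. For Ifngr2, Crlf2 and Rab32 (2 each) and Cfp (4) came nearest, and Ifnar1 and Ifnar2 were its nearest among the 9 genes with 18 each.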

How the data were processed

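Wound RNA was sequenced by the authors in 12 libraries (3 in each of 4 groups) as paired-end reads of 150 bases, and expression was estimated with StringTie. Per the labels' processing notes, Trimmomatic 0.36 and bcl2fastq were used. The authors deposited TPM per gene, 1 table per library, with 0.0001 in place of 0 and coordinates of GRCm38. No source used here names the aligner. The depth is unknown, so the precision rests on the spread of 3 libraries.

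Values were put on the log2(TPM + 0.1) scale and limma 3.58.1 (R 4.3.3, variance trend) was fitted to genes whose mean reached 0.3 TPM in both groups (in all 4 for both days together, in 1 or more of 4 for the difference of effects). Unadjusted p-values are named as such, and p-values were adjusted over all genes tested by the Benjamini-Hochberg method. Such differences understate changes of low genes. An exact 2-sided permutation test over 20 divisions of 6 libraries was made for each of the 9 genes. The 6 comparisons, CAP against sham at day 3, day 6, both days and between days, and day 6 against day 3 within each treatment, share libraries. Alternatives were a pseudocount of 1 TPM, no filter, a joint fit, the replicate number as a block, median-ratio scaling, quantile normalization and leaving out each library. All 9 genes were named in each comparison, members of the pathway lists and 8 marker lists where a sentence is about the list, and otherwise the 3 with the smallest p. For 3 genes, 3 genes of most similar pattern were named, with ties taken in alphabetical order. The 9 genes and the lists were chosen with earlier results of these data known. Irf7 stands in 2 pathway lists. Some items of the pathway lists are not reported here. Transcript stretches of 31 bases were looked up in GENCODE M21, and between 0% and 8.78% of those of each gene were shared with other genes. Python 3.11.15, numpy 2.4.6, pandas 2.3.3 and matplotlib 3.10.9 were used.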

Additional observations from a re-analysis of the deposited data

Results flagged for a closer look

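The effect of CAP differed between day 6 and day 3 at an unadjusted p under 0.05 for 1 of the 9 genes, in the limma fit of all 12 libraries. It also did for 4 genes of the pathway lists reported here, namely Ptpn1 of 14 inhibitors and Irf1, Irf4 and Irf7 of 8 other interferon regulatory factors. Irf7 alone passed among 12 ISGF3 target genes, and none of 2 lambda receptor chains and 7 other kinases and STATs did. Over all genes tested, 11.3% had an unadjusted p under 0.05. None of the genes named here had an adjusted p under 0.05 (their adjusted p-values lay between 0.428 and 0.440). Ifnar1 had a lower effect at day 6 by -0.66 log2 (unadjusted p = 0.0379), with all 3 CAP-treated wounds below all sham wounds at day 6 and overlapping groups at day 3. Ptpn1, a phosphatase of the kinases, followed with -0.46 log2 (unadjusted p = 0.0483) and Irf1 with -0.52 log2 (unadjusted p = 0.0362). In the other direction, Irf7 had 1.86 log2 (unadjusted p = 0.0120) and Irf4 1.30 log2 (unadjusted p = 0.0272). Irf4, a factor of lymphocytes and some macrophages, was at 7.71, 15.8 and 14.0 TPM in the sham group and at 12.2, 4.90 and 8.28 TPM in CAP-treated wounds at day 3, with overlap, and at 7.34, 4.28 and 6.66 TPM and 8.10, 12.9 and 8.99 TPM at day 6, without overlap.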

How the results depend on the processing

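Of 738 values of the 9 genes under the alternatives, 655 kept their direction and their side of an unadjusted p of 0.05, 31 no longer passed it, 24 newly passed it and 28 changed sign. Stat2 and Irf9 at day 3 and over both days, Jak2 over both days, and Stat2 and Ifnar1 at day 6 kept both under every alternative run for them. At day 6 the p of Ifnar2 and of Irf9 was over 0.05 in 6 of 12 alternatives each, that of Ifngr2 in 5 and that of Jak2 in 1. The cause of the changes was not tested. Sign changes under another scaling were of small values, with 0.019 log2 for Ifnar2 at day 3, 0.043 for Jak1 at day 6, 0.015 for Jak1 over both days and 0.036 for Jak1 in the difference of the effects, all with median-ratio scaling, and 0.0032 for the last with quantile normalization.

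When 1 library was left out, values that changed sign ranged at day 3 from -0.15 to 0.024 for Tyk2, -0.11 to 0.16 for Ifnar1, -0.22 to 0.10 for Ifnar2, -0.065 to 0.13 for Ifngr1 and -0.11 to 0.11 for Ifngr2. At day 6 Jak1 ranged from -0.14 to 0.041. In the difference of the effects Jak1 ranged from -0.078 to 0.11 and Tyk2 from -0.18 to 0.030. Between days, Ifngr1 ranged from -0.052 to 0.14 in the sham group, and in CAP-treated wounds Jak1 ranged from -0.16 to 0.024 and Ifnar2 from -0.51 to 0.016.

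When 1 library was left out, the number of the 9 genes at an unadjusted p under 0.05 ranged from 3 to 6 at day 6, 3 to 6 over both days, 0 to 4 in the difference of the effects, 2 to 5 between days in the sham group and 0 to 2 in CAP-treated wounds, and was 2 at day 3. Over all genes tested, the number moved as well in these fits. It ranged from 1925 to 5262 at day 6, 1934 to 3785 over both days and 1408 to 4062 in the difference. Between days it ranged from 2184 to 3297 in the sham group and 1211 to 2975 in CAP-treated wounds. The number past the 2-fold threshold stayed at 0 except at day 3 without CAP replicate 1 (range 0 to 1). With median-ratio scaling 3 of the 9 genes passed p under 0.05 at day 6, and in a joint fit 2 passed between days in CAP-treated wounds.

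Libraries with the same replicate number did not pair. The correlation of their deviations from the group means lay between -0.107 and 0.200, and not every library correlated best with its own number. With the replicate block, 3 of the 9 genes passed in the difference of the effects and 3 between days in CAP-treated wounds, and the counts at day 3, at day 6 and over both days were 2, 6 and 3. The block gave adjusted p-values over both days of 0.0200 for Stat2 and 0.0418 for Irf9. With it, 173 of the 17784 genes tested had an adjusted p under 0.05 over both days, against 0 in the main fit.

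Over all genes, the number past the 2-fold threshold moved by over 1.5 times with a pseudocount of 1 TPM, from 290 to 154 at day 3, from 697 to 385 at day 6, from 169 to 73 over both days, from 994 to 580 in the difference, from 688 to 405 in the sham group and from 507 to 299 in CAP-treated wounds. When 1 library was left out, it became 510 at day 3 (without CAP replicate 1), 311 and 1483 at day 6 (without CAP replicates 2 and 3), 657 and 1777 in the difference (without CAP day 6 replicates 2 and 3) and 886 between days in CAP-treated wounds (without CAP day 6 replicate 3). Without a filter it was 568 at day 3, 400 over both days, 1156 in the sham group and 842 in CAP-treated wounds. The split of higher and lower genes was 268 and 429 at day 6, against 403 and 285 with median-ratio scaling and 406 and 244 with quantile normalization. It was 78 and 212 at day 3 against 101 and 160 with quantile normalization, and 21 and 148 over both days against 35 and 109 and 42 and 94 with these scalings. With no read counts, depth sets no stated limit here.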
